A study of Mus musculus with 5 samples.

Results

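The enzymes that make, recycle and remove deoxynucleotides were examined in cultured 4T1 cells, a mouse mammary carcinoma line that forms triple-negative tumours. The 9 genes were taken by symbol, namely Rrm1, Rrm2, Rrm2b, Tyms, Tk1, Dut, Dctd, Dck and Samhd1. All 9 were among the 13143 genes of the deposited count table, and all 9 were among the 11975 genes that had enough counts to be tested. The study asks how TAZ, a transcriptional coactivator of the Hippo pathway encoded by Wwtr1, shapes breast tumours, and the cultured clones address the tumour cells on their own. RNA was sequenced from untreated cells in RPMI medium with serum, as 1 library from each of 3 wild-type (WT) clones and 2 TAZ knockout (TAZ-KO) clones. All clones descend from 4T1 cells that carry Cas9 and were selected with blasticidin. The TAZ-KO clones come from 1 Cas9 clone, received a lentiviral guide against Wwtr1, the same guide in both, and were selected with puromycin, whereas the WT clones received no guide. Founder, guide vector, puromycin and TAZ loss therefore cannot be told apart, and p-values measure the spread between single clones. The table names both TAZ-KO libraries with the letters YAP, and the groups here follow the sample labels, which give TAZ KO.

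Ribonucleotide reductase turns ribonucleotides into deoxynucleotides and is built from a large subunit, RRM1, and a small subunit, either RRM2, which is made in S phase, or RRM2B, which serves resting and damaged cells. Thymidylate comes from deoxyuridylate through thymidylate synthase (Tyms), whose substrate is supplied by dUTPase (Dut) and deoxycytidylate deaminase (Dctd), or from salvaged thymidine through thymidine kinase 1 (Tk1). Deoxycytidine kinase (Dck) salvages deoxycytidine and purine deoxynucleosides, and SAMHD1 breaks deoxynucleoside triphosphates down again. Transcripts of several of these enzymes are made mainly in cells that replicate their DNA.

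The genes fell into 3 patterns. Rrm2, Dck, Tyms and Rrm1 had their 2 highest levels in the TAZ-KO clones, with the widest gap in Rrm2. Tk1 and Dut were as high in WT clone 1 as in the TAZ-KO clones and lower only in WT clones 2 and 3. Rrm2b, Dctd and Samhd1 had lower means in TAZ-KO, and their groups overlapped. None of the 9 genes passed the edgeR quasi-likelihood test at an adjusted p of 0.05, a threshold passed by 0.0501% of all tested genes. At an unadjusted p under 0.05, 3 genes were higher (Rrm2, Dck and Tyms) and 0 were lower, where 7.94% of all tested genes were higher and 9.41% were lower. The 4 genes whose TAZ-KO clones lay above all WT clones compare with 18.7% of all tested genes, and the 0 genes below all WT clones with 18.6%. DESeq2 called 2 of the 9 genes higher (Rrm2 and Dck) and 0 lower, against 2.15% and 3.11% of the genes it tested. Without WT clone 1, edgeR called 5 higher (Rrm2, Tk1, Dck, Dut and Tyms) and 1 lower (Dctd), but that fit called 19.1% of all tested genes higher and 19.7% lower. No gene was called without any other single clone. With 1 surrogate variable, edgeR called 2 of the 9 genes (Rrm2 and Dck), and 528 of all 11975 tested genes. In that fit the log2 fold changes of Dut, Tk1, Dctd, Samhd1 and Rrm2b shrank to 0.10, 0.32, -0.18, -0.16 and -0.023. The median log2 fold change of the 9 genes was 0.49, that of all tested genes was -0.03, and the former ranged from 0.30 without WT clone 2 to 0.81 without WT clone 1.

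**Figure D1:**
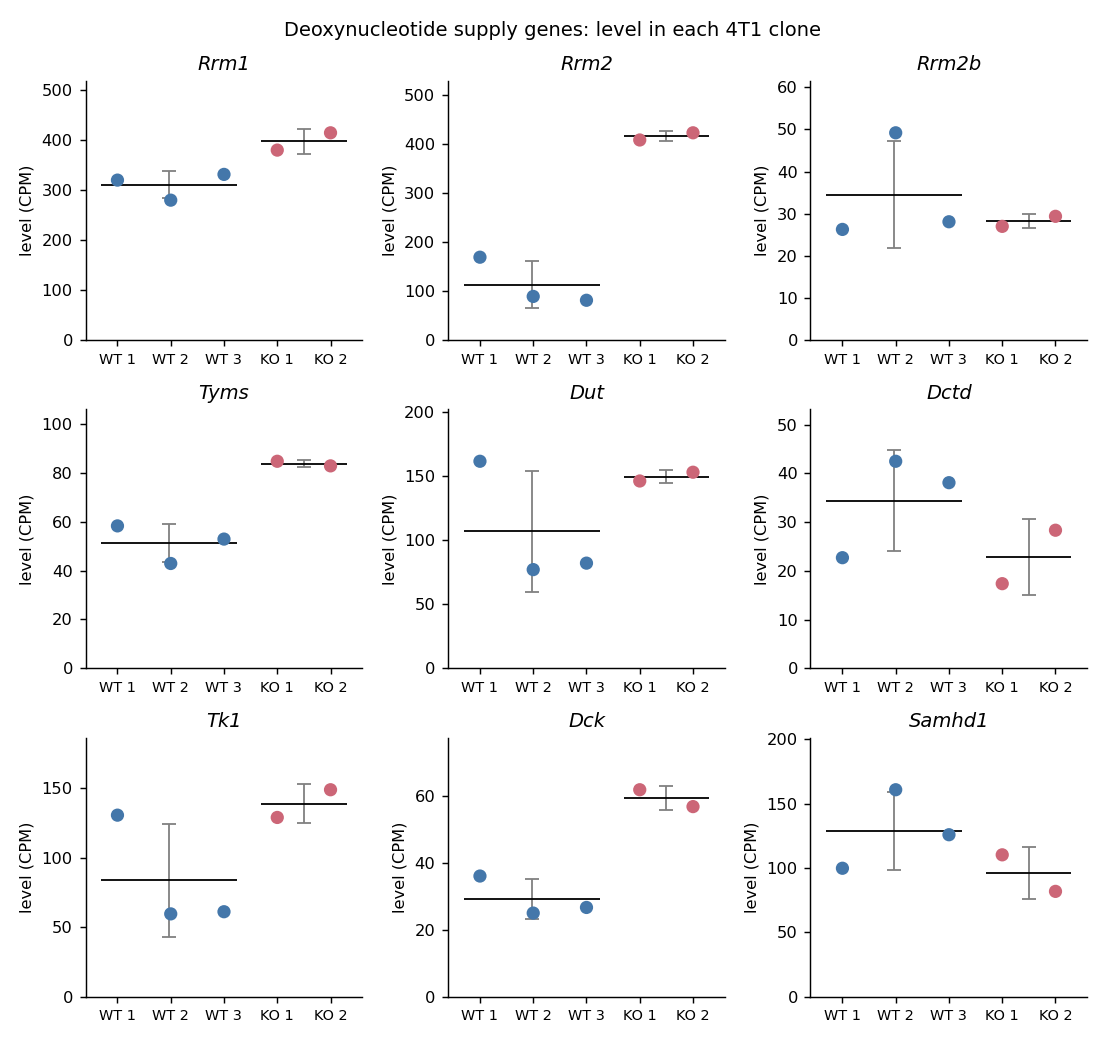
Level of each gene in CPM (counts scaled to a common library total) on the y axis, starting at 0, in 3 WT clones (blue) and 2 TAZ-KO clones (red); lines are group means and grey bars 1 SD. Rrm2 lay at 80.9 to 169 CPM in WT and 408 to 423 CPM in TAZ-KO, while Tk1 of WT clone 1 (131 CPM) lay between the TAZ-KO clones.

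The DNA just before the start of the 4 genes with separated groups is shown first, so that the letters of known cell cycle promoter motifs can be looked for in them. The sequences are from RefSeq (GRCm38.p6) and run 5′ to 3′ in the direction of the gene, and capitals mark CCAAT, the letters of the CCAAT box. Each stretch holds 160 bases and ends just before the gene start of GENCODE or RefSeq, whichever lies upstream, and the GENCODE start lies 13 bases before the RefSeq start in Rrm2 and 17 in Dck.
Rrm2, chr12:24708081-24708240, plus strand: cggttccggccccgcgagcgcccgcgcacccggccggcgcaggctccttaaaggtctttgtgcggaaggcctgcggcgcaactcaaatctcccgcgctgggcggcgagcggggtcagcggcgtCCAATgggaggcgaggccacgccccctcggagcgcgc
Rrm1, chr7:102441535-102441694, plus strand: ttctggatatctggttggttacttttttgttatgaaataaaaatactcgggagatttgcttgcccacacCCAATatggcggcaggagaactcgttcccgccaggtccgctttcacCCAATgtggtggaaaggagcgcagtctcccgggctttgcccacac
Dck, chr5:88764836-88764995, plus strand: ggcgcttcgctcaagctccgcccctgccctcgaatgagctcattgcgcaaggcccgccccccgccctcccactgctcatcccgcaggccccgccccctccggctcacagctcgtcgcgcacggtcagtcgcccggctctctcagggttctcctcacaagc
Tyms, chr5:30073626-30073785, minus strand: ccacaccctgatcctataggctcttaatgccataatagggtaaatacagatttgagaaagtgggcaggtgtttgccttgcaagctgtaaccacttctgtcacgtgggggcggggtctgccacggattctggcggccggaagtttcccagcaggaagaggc

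RefSeq windows from 250 bases before to 50 bases after a start were found for 8 of the 9 genes, all but Rrm2b, and numbered 10 because Dctd has several starts. CCAAT, read on both strands, was present in 4 of these 10 windows and in 37.4% of all 32851 windows of this length. It began 50 bases before the start of Rrm2, and 91 and 45 bases before that of Rrm1 (both copies are in the stretch shown), and the 2 windows of Dctd that held it overlap and contain the same copy, which is thus counted 2 times. The E2F-type letters TTTCCCGC, TTTGGCGC, TTTCGCGC and TTTGCCGC were in 0 of the 10 windows and in 2.26% of all windows. The letters TTTGAA or TTCGAA, written for the cell cycle homology region, were in 1 of the 10 windows, that of Dck at 245 bases before the start, and in 19.2% of all windows. The letters of these motifs do not overlap each other. These matches describe letters in short windows and say nothing of which factor binds there.

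Among the subunits of ribonucleotide reductase, Rrm2 differed most between the groups. Rrm2 (chromosome 12, 24708241 to 24714146, GRCm38), the S phase small subunit, was measured in WT clones 1, 2 and 3 at 169, 88.8 and 80.9 CPM, whereas TAZ-KO clones 1 and 2 gave 408 and 423 CPM. The lower TAZ-KO clone was 2.42 times the highest WT clone, and the TAZ-KO clones differed from each other by only 1.04-fold. The means were 113 ± 48.7 CPM (SD, n = 3) and 416 ± 10.4 CPM (SD, n = 2), which is 3.68-fold (log2 fold change 1.88, SE 0.35), and the edgeR adjusted p was 0.136. Rrm2 rose by DESeq2 (adjusted p = 0.00026), with 1 surrogate variable in edgeR (adjusted p = 0.0052, log2 fold change 1.51) and without WT clone 1 (adjusted p = 0.00022, with a log2 fold change of 2.30 and SE of 0.16).

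Rrm1 (chromosome 7, 102441695 to 102469771), the large subunit that holds the active site, gave 320.2, 280.03 and 332 CPM in WT, against 380.4 and 415 CPM in TAZ-KO. The groups did not overlap, but the lower TAZ-KO clone was only 1.15 times the highest WT clone. Its difference was 1.28-fold (log2 fold change 0.36, SE 0.20, edgeR adjusted p = 0.386), and it was the 1 gene of the 4 that no alternative called. The Rrm1 locus holds a further annotated transcript, Gm45399, which the table does not list. Rrm2b (chromosome 15, 37923952 to 37961318), the small subunit of resting and damaged cells, was at 26.2, 49.2 and 28.1 CPM in WT and at 27.0 and 29.4 CPM in TAZ-KO. WT clone 2 alone stood high, and the remaining 4 clones lay within 26.2 to 29.4 CPM. The log2 fold change was -0.29 (SE 0.33, edgeR adjusted p = 0.65), and without WT clone 2 it was 0.051. The pseudogene Gm3362 and the antisense gene Gm49085 overlap Rrm2b and are not listed in the table.

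In the thymidylate branch, Tyms was separated between the groups and Dut and Dctd were not. Tyms (chromosome 5, 30058202 to 30073617), which methylates deoxyuridylate to thymidylate, was at 58.3, 42.9 and 52.9 CPM in WT and at 84.7 and 82.8 CPM in TAZ-KO. The lower TAZ-KO clone was 1.42 times the highest WT clone, and the fold change was 1.63 (log2 0.71, SE 0.21, edgeR adjusted p = 0.219). Tyms rose in the fit without WT clone 1 (adjusted p = 0.00785). A processed pseudogene, Tyms-ps, is annotated and not listed in the table, so any reads it took could not be assessed. Dut (chromosome 2, 125247190 to 125258608), which hydrolyses dUTP and so keeps uracil out of DNA, was at 161, 77.0 and 82.0 CPM in WT and at 146 and 153 CPM in TAZ-KO. WT clone 1 was the highest of all clones, 2.03 times the mean of WT clones 2 and 3. The log2 fold change of 0.49 (SE 0.36, edgeR adjusted p = 0.489) became 0.91 without WT clone 1 (SE 0.15, adjusted p = 0.00324).

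Dctd (chromosome 8, 48099092 to 48153233), which makes deoxyuridylate from deoxycytidylate, was at 22.7, 42.5 and 38.1 CPM in WT and at 17.4 and 28.4 CPM in TAZ-KO. WT clone 1 fell between the TAZ-KO clones, and these differed from each other by 1.63-fold, more than in any of the other 8 genes. The log2 fold change was -0.59 (SE 0.36, edgeR adjusted p = 0.419), and ran from -0.99 without TAZ-KO clone 2 to -0.27 without TAZ-KO clone 1. Dctd fell in the fit without WT clone 1 (adjusted p = 0.033, with a log2 fold change of -0.81 and SE of 0.25).

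Both salvage kinases had higher means in TAZ-KO, and they differed in where WT clone 1 lay. Dck (chromosome 5, 88764996 to 88783281), whose product also activates cytidine and purine analogue drugs, was at 36.0, 25.0 and 26.6 CPM in WT and at 61.7 and 56.7 CPM in TAZ-KO. The groups were apart, the lower TAZ-KO clone being 1.57 times the highest WT clone. The means of 29.2 ± 5.95 and 59.2 ± 3.56 CPM gave a 2.03-fold difference (log2 1.02, SE 0.23, edgeR adjusted p = 0.159). Dck rose by DESeq2 (adjusted p = 0.0148), with 1 surrogate variable (adjusted p = 0.0434, log2 fold change 0.82) and without WT clone 1 (adjusted p = 0.00165, with a log2 fold change of 1.20 and SE of 0.16). Tk1 (chromosome 11, 117815526 to 117826092), the cytosolic thymidine kinase of dividing cells, was at 131, 59.7 and 61.2 CPM in WT and at 129 and 149 CPM in TAZ-KO. WT clone 1 was 2.16 times the mean of WT clones 2 and 3 and lay between the TAZ-KO clones. The log2 fold change was 0.73 (SE 0.38, edgeR adjusted p = 0.359), and Tk1 rose only in the fit without WT clone 1 (adjusted p = 0.00146, with a log2 fold change of 1.20 and SE of 0.16). Afmid, at 12.3 to 25.4 CPM, and Gm20708, which is not listed, overlap Tk1 on the opposite strand, and with strand handling not given their reads cannot be told apart there.

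Samhd1 (chromosome 2, 157097533 to 157135265), the triphosphohydrolase that empties deoxynucleotide pools and is known as an interferon-inducible restriction factor of viruses, was at 99.9, 161 and 126 CPM in WT and at 110.3 and 81.9 CPM in TAZ-KO. WT clone 1 lay between the TAZ-KO clones, and WT clones 2 and 3 above both. The log2 fold change was -0.42 (SE 0.27, edgeR adjusted p = 0.441), and without WT clone 1 it was -0.57 (SE 0.20, adjusted p = 0.0551). It was -0.23 without WT clone 2, -0.23 without TAZ-KO clone 2 and -0.64 without TAZ-KO clone 1.

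**Figure D2:**
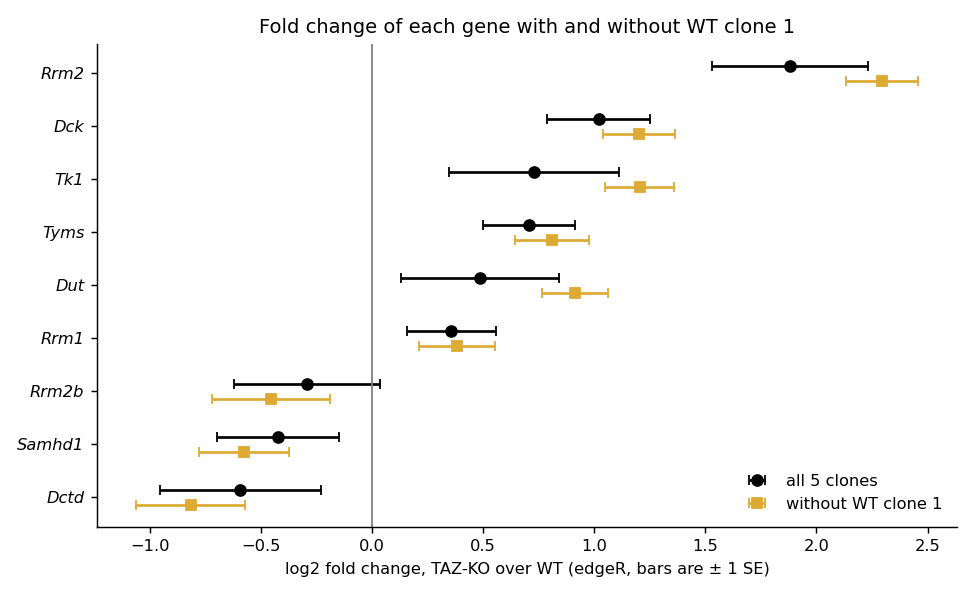
Log2 fold change of TAZ-KO over WT from edgeR (x axis, bars 1 SE) for each gene (y axis), with all 5 clones (black circles) and without WT clone 1 (yellow squares). Rrm2 stood at 1.88 and 2.30, Tk1 moved from 0.73 to 1.20, and Rrm1 hardly moved (0.36 and 0.38).

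The 9 genes were then set beside 24 other genes of S phase, such as replication licensing and fork proteins, because a clone with more cells in S phase holds more of these transcripts. In bulk RNA, a larger share of cells in S phase and more RNA per such cell cannot be told apart. The mean of that list, centred on the 5 clones on the log2 CPM scale, was 0.39, -0.90 and -0.66 for WT clones 1, 2 and 3, against 0.53 and 0.64 for the TAZ-KO clones. Of its 24 tested genes, 24 had a positive fold change (median log2 0.76), against 5744 of all 11975 tested genes. Of these 24, 0 passed edgeR, 0 passed DESeq2 and 7 were higher at an unadjusted p under 0.05 (7.94% of all tested genes). In 14 of the 24 the TAZ-KO clones lay above all WT clones, as in 4 of the 9 genes, against 18.7% of all tested genes. Without WT clone 1, 22 of them rose, in the fit that called 19.1% of all tested genes higher.

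Tk1 followed this list closely. Its centred level minus the list mean was within -0.13 to 0.18 in the 5 clones. The same difference for Dut ran from -0.26 to 0.28. Rrm2 departed from the list mean, by -0.51, -0.15 and -0.53 for WT clones 1, 2 and 3. For TAZ-KO it departed in the other direction, by 0.63 and 0.56. Its level in TAZ-KO thus exceeded the list mean while its level in WT clones was below it. The 24 listed genes were themselves spread, with log2 fold changes from 0.30 (Cdt1) to 1.72 (Cdc6) around the median of 0.76. Ccne2 of the list had 1.56, and Rrm2 had 1.88. Whether Rrm2 departed from the mean more than single members of the list was not tested. Rrm1 was flatter than the list, with a centred level from -0.29 to 0.28 in all clones. Rrm2b, Dctd and Samhd1 were above their own mean in WT clone 2 (0.66, 0.58 and 0.51), the clone in which the list was lowest. The part of the S phase list in the differences of these genes was not tested.

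**Figure D3:**
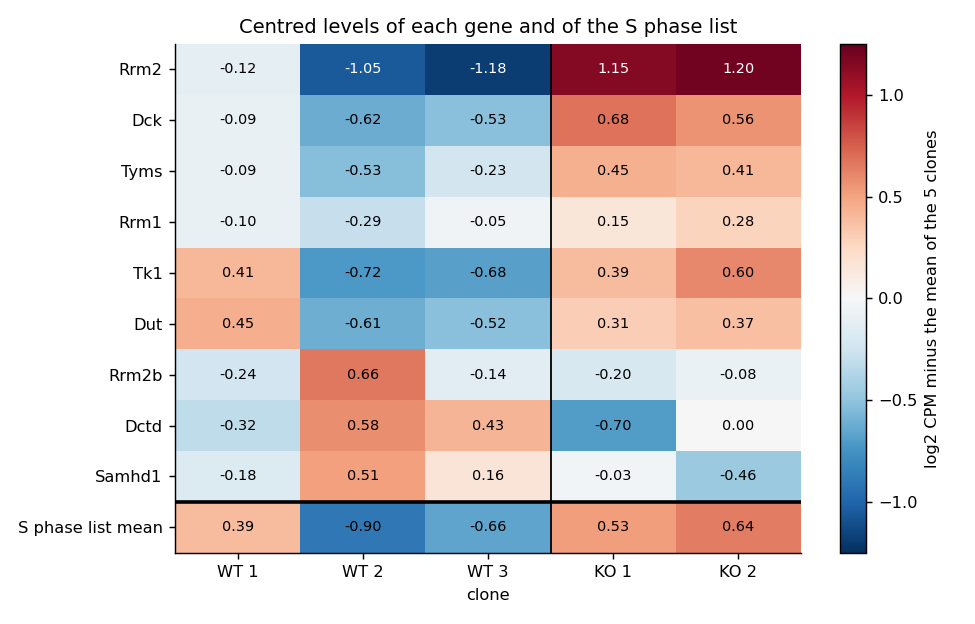
Colour and number give log2 CPM minus the mean of the 5 clones for each gene (rows) and clone (columns), with the mean of the 24 S phase genes in the bottom row. WT clone 1 was near 0.4 for Tk1 (0.41), Dut (0.45) and the list (0.39), but below 0 for Rrm2 (-0.12), Dck (-0.09), Tyms (-0.09) and Rrm1 (-0.10).

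Ratios of 2 genes within a library do not depend on how libraries are scaled, and 6 pairs were compared by an exact two-sided permutation test over the clones, which allows no p under 0.1 in this design. A ratio is read between clones only, since gene lengths and capture set its absolute value. The log2 ratio of Rrm2 to Rrm1, the small to the large subunit, was -0.92, -1.66 and -2.03 for WT clones 1, 2 and 3, against 0.10 and 0.028 in TAZ-KO. All WT clones thus lay below both TAZ-KO clones, by 1.60 on average (3.04-fold, exact permutation p = 0.1, 0.3 adjusted over the 6 pairs). The ratio of Rrm2 to Rrm2b, the S phase to the resting small subunit, was 2.68, 0.85 and 1.52 in WT and 3.91 and 3.84 in TAZ-KO, a mean difference of 2.19 (exact permutation p = 0.2, adjusted 0.3). That of Rrm2 to Samhd1, synthesis to breakdown, was 0.76, -0.86 and -0.64 in WT and 1.89 and 2.37 in TAZ-KO, a mean difference of 2.37 (exact permutation p = 0.2, adjusted 0.3).

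The other pairs separated less. Tyms over Dctd was 1.35, 0.012 and 0.47 in WT and 2.28 and 1.54 in TAZ-KO, with all TAZ-KO values above the WT values (mean difference 1.30, exact permutation p = 0.2, adjusted 0.3). Tk1 over Dck had means of 1.44 ± 0.37 (SD, n = 3) in WT and 1.23 ± 0.23 (SD, n = 2) in TAZ-KO and overlapped (exact permutation p = 0.7, adjusted 0.84). Tyms over Dut had means of -0.98 ± 0.43 and -0.83 ± 0.07 and overlapped too (exact permutation p = 0.9, adjusted 0.9). Both of these differences changed sign without WT clone 1, to 0.0024 and -0.10, and are not read as a direction.

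**Figure D4:**
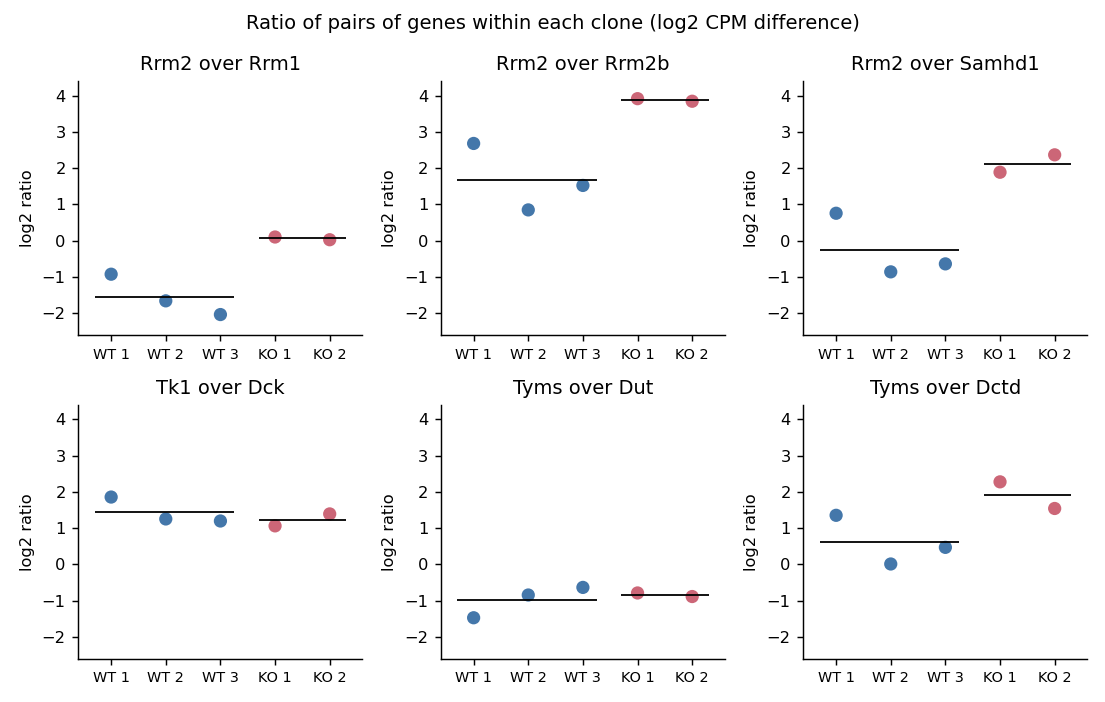
Log2 ratio of 6 pairs of genes (y axis, same scale in all panels) in 3 WT clones (blue) and 2 TAZ-KO clones (red); lines are group means. The pairs with Rrm2 as numerator, and Tyms over Dctd, had no overlap between the groups, and the ratio of Rrm2 to Rrm1 in TAZ-KO lay at 0.028 to 0.10.

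Single clones of this tetraploid line can differ in copy number, so each gene was set beside the genes around it. The median log2 fold change of the 921 other tested genes on chromosome 2 was -0.31, and that of the 20 nearest tested genes was -0.32 at Samhd1 and -0.60 at Dut. The fold change of Samhd1, at -0.42, was thus about that of its surroundings, but its single clones were not alike. Its centred level was -0.18, 0.51 and 0.16 for WT clones 1 to 3, then -0.03 and -0.46 for TAZ-KO. The medians of its chromosome were 0.11, 0.08 and 0.10, then -0.16 and -0.19. Dut, at 0.49, stood above a chromosome and a neighbourhood that were lower in TAZ-KO. Around Rrm2 the medians were 0.033 for 401 genes of chromosome 12 and -0.00016 for the 20 nearest, against 1.88 for Rrm2 itself. On chromosome 5 the median over 746 genes was 0.07, with 0.22 for the neighbours of Dck and 0.02 for those of Tyms. The chromosomes of Rrm1, Rrm2b, Tk1 and Dctd had medians of -0.12, -0.09, 0.07 and 0.04. Copy number itself was not measured, and its part in these differences was not tested.

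**Figure D5:**
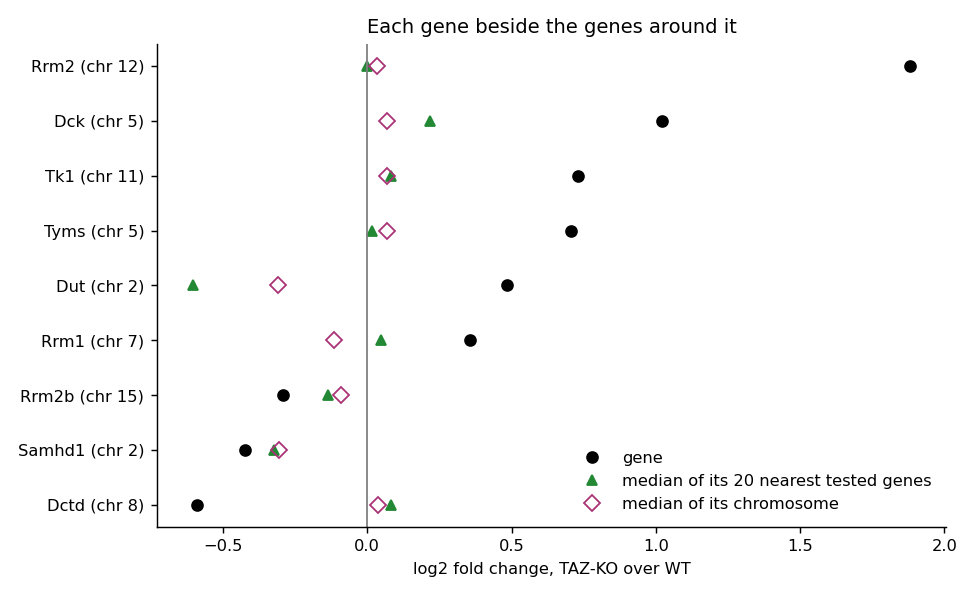
Log2 fold change of TAZ-KO over WT (x axis) of each gene (circle), the median of its 20 nearest tested genes (triangle) and the median of its chromosome (diamond). Samhd1 (-0.42) lay near its chromosome (-0.31), and Dut (0.49) lay opposite to the same chromosome and to its neighbours (-0.60).

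Enzymes around the 9 genes were read from lists of the neighbouring pathways. No member of any of the lists that follow passed edgeR. Over all tested genes, 5744 fold changes were positive and 6231 negative. Of 19 tested salvage and nucleotide kinases, 6 had a positive and 13 a negative fold change (median log2 -0.20), and both TAZ-KO clones lay above all WT clones in 2 and below in 5, where 18.7% and 18.6% of all tested genes did. The uridine kinase genes Uck2 (133, 171 and 206 CPM in WT, 91.8 and 114 CPM in TAZ-KO) and Uckl1 (19.9, 22.5 and 21.5 against 11.2 and 11.7 CPM) were among these 5, and Uckl1 fell by DESeq2 (adjusted p = 0.0233).

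Genes of the folate cycle, which supplies the methyl group for thymidylate, had 7 positive and 5 negative fold changes in 12 tested genes (median log2 0.13). The largest differences set WT clones 2 and 3 apart from the rest. Mthfd2, a mitochondrial folate enzyme, was at 46.4, 295 and 325 CPM in WT and 52.0 and 118 CPM in TAZ-KO (log2 fold change -1.38, SE 0.82). De novo pyrimidine synthesis (5 genes, 2 positive and 3 negative, median log2 -0.04) showed the same in CTP synthase Ctps, at 71.7, 337 and 372 CPM against 116 and 122 CPM. In de novo purine synthesis (13 genes, 5 positive and 8 negative, median log2 -0.10), Prps2, which makes the ribose donor, was at 61.4, 51.3 and 55.0 CPM in WT and 83.9 and 88.3 CPM in TAZ-KO, and Adsl, adenylosuccinate lyase, at 80.0, 66.0 and 69.1 CPM against 112 and 107 CPM. Their edgeR adjusted p values were 0.223 and 0.228. The largest difference of this list was a negative one, in Adssl1 (log2 fold change -0.72, SE 0.59), whose groups overlapped.

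In breakdown and pool cleaning (20 tested genes, 11 positive and 9 negative, median log2 0.16), Nudt1, which removes oxidised purine nucleotides, was at 11.5, 7.18 and 5.61 CPM in WT and 15.9 and 15.4 CPM in TAZ-KO (log2 fold change 0.95, SE 0.36). Xdh and Ada went the other way, with both TAZ-KO clones below all WT clones (log2 fold changes -1.10, SE 0.54, and -1.01, SE 0.50). Among 8 electron donors of ribonucleotide reductase (2 positive and 6 negative, median log2 -0.15), thioredoxin Txn1 was at 414, 197 and 247 CPM in WT and 454 and 457 CPM in TAZ-KO (log2 fold change 0.67). Txnrd2 and Glrx3 had log2 fold changes of -0.65 and -0.38, and their groups overlapped. Of 5 tested nucleoside and nucleotide carriers (3 positive and 2 negative, median log2 0.02), the mitochondrial pyrimidine nucleotide carrier Slc25a33 was at 7.93, 90.2 and 87.8 CPM in WT and 8.92 and 10.1 CPM in TAZ-KO. DESeq2 called it lower (adjusted p = 0.0236), but WT clone 1 lay below both TAZ-KO clones, and only WT clones 2 and 3 stood high.

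Regulators known to act on the 9 genes were read in the same way. Of 13 E2F and RB factors, 10 had positive and 3 negative fold changes (median log2 0.35). E2f1, an activator of S phase genes, was at 60.0, 23.8 and 22.3 CPM in WT and 69.8 and 90.9 CPM in TAZ-KO (edgeR adjusted p = 0.279). E2f8 and Rb1 had log2 fold changes of 1.14 and -0.72, and their groups overlapped. All 11 regulators of turnover and of the replication checkpoint were positive (median log2 0.62). In 4 of the 11 the TAZ-KO clones lay above all WT clones, against 18.7% of all tested genes. Ccnf, whose product, cyclin F, targets RRM2 for degradation in G2, was at 121, 36.9 and 45.7 CPM in WT and 153 and 86.6 CPM in TAZ-KO. Chek1, the checkpoint kinase, was at 132, 72.4 and 78.3 CPM against 148 and 167 CPM. Genes of G2 and mitosis were split, with 9 positive and 6 negative of 15 (median log2 0.26).

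The lists of p53 targets and interferon-stimulated genes had negative medians. Of 14 tested p53 targets, a class to which Rrm2b belongs, 10 had negative fold changes (median log2 -0.37), and Bbc3, a proapoptotic gene, was at 30.8, 52.7 and 41.6 CPM in WT and 12.8 and 18.7 CPM in TAZ-KO, and fell by DESeq2 (adjusted p = 0.00754). The centred mean of this list was -0.15, 0.31 and 0.21 for WT clones 1 to 3, then -0.14 and -0.24 for TAZ-KO, whereas Rrm2b stood at -0.24, 0.66 and -0.14, then -0.20 and -0.08. Both were highest in WT clone 2, the other clones came in a different order, and the part of p53 in the level of Rrm2b was not tested. Of 19 tested interferon-stimulated genes, 17 had negative fold changes (median log2 -0.39). Oasl1 and Ifit1 fell by DESeq2 (adjusted p = 0.02 and 0.0483). Oasl1 was at 2.51, 19.9 and 13.1 CPM in WT and 2.18 and 0.267 CPM in TAZ-KO. Ifit1 was at 2.37, 7.91 and 7.96 CPM in WT and 1.85 and 0.40 CPM in TAZ-KO. In both genes WT clone 1 lay close to TAZ-KO clone 1. The centred mean of the list was -0.15, 0.64 and 0.32 for WT clones 1, 2 and 3, then -0.08 and -0.72 for TAZ-KO, and Samhd1 put the 5 clones in the same order (-0.18, 0.51 and 0.16, then -0.03 and -0.46). This order is a description over 5 clones that share their libraries, and the part of interferon signalling in the level of Samhd1 was not tested. Cd68, a macrophage marker, was also highest in WT clone 2, at 11.7, 30.1 and 15.8 CPM in WT and 9.19 and 9.94 CPM in TAZ-KO, while Ptprc, a defining marker of leukocytes, had 0 to 8 counts and Itgam 1 to 9 counts in a library. The part of such cells was not tested.

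The genes whose pattern came closest to that of a deoxynucleotide gene, for the 5 genes whose clones spanned at least 1 log2 unit, were found by the smallest root mean square difference of centred log2 CPM over the 5 clones. For Rrm2 these were Adgrg1 (0.057), Adamts7 (0.10) and Nipal1 (0.10), for Dck Aunip (0.067), Sfxn2 (0.076) and Pbxip1 (0.078), and for Tk1 Zc3h4 (0.020), Glb1l (0.047) and Sephs1 (0.062). Adgrg1, an adhesion G protein-coupled receptor, was at 13.9, 7.05 and 7.03 CPM in WT and 34.3 and 33.2 CPM in TAZ-KO. Pfkfb4 (0.021), Nxn (0.049) and Rps6ka1 (0.050) came closest to Dut. The genes closest to Dctd were Senp5, Gspt1 and Timmdc1 (0.043, 0.046 and 0.064), all 3 on chromosome 16, whereas Dctd is on chromosome 8.

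Facts of the whole series that touch these values were as follows. The libraries held 14695384 to 16452147 counts, so that 3 counts corresponded to 0.184 to 0.203 CPM, and the lowest count of any of the 9 genes was 263 (Dctd in TAZ-KO clone 1). Wwtr1 itself was at 659.7, 312 and 315 CPM in WT, against 129 and 152 CPM in TAZ-KO (log2 fold change -1.61, SE 0.40, edgeR adjusted p = 0.19, and 0.00193 without WT clone 1). WT clone 1, in which Tk1 and Dut reached the level of TAZ-KO, thus had the most Wwtr1. Of 7 epithelial markers 6 were listed, with a summed level, scaled by total counts, of 1677 to 3729 CPM in WT and 2863 to 2911 in TAZ-KO, and Krt5 was not listed. Krt8 and Krt18 made up most of this sum and were lowest in WT clones 2 and 3, where Cdh1 (246, 658 and 490.1 CPM in WT, 424 and 251 CPM in TAZ-KO) and Cldn4 (5.63, 66.4 and 46.4 CPM in WT, 12.2 and 2.34 CPM in TAZ-KO) were highest. Fibroblast markers (3 of 5 listed, almost all Pdgfra) summed to 29.4 to 116 in WT and 88.0 to 94.8 in TAZ-KO, and endothelial markers (2 of 3) to at most 1.43.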

How the data were processed

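The deposited table holds whole-number counts for each gene and library, which were the only values used. It also holds the authors' normalised signal (size-factor scaled), their regularised log2 values, and their own comparison of the groups with fold changes and p-values, left unused. Reads had been trimmed with cutadapt, mapped with STAR and counted per gene in UTAP, and the submitters' processing notes name mm10 and DESeq2. The paper also applied a batch correction by surrogate variable analysis to the RNA-seq of cultured cells, and the sample labels name no batch. The labels speak of mRNA-seq whereas the methods describe MARS-seq, which reads 3′ ends, so levels were compared between libraries and not between genes. The sources used here do not give whether counting used strand. Every listed gene had more than 5 counts in some library, so lower genes had been removed.

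Genotype was tested across all genes with edgeR 4.0.16 (R 4.3.3; quasi-likelihood F-test, TMM, filterByExpr) with p-values adjusted by Benjamini-Hochberg over all tested genes (threshold 0.05). The SE is derived from the F statistic and the log2 fold change, and centred levels and ratios are log2 CPM with a prior count of 2. The fits were checked on simulated counts with the same spread between libraries set for every gene. That spread was smaller than the one between the WT clones in Rrm2, Tk1 and Dut, so the check does not cover it. The members and lists were chosen with earlier results of these data known. Of each list, up to 3 genes with the largest difference and a mean of at least 1 log2 CPM could be named. Coordinates are from the GENCODE annotation of GRCm38 (12670 listed symbols found).

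Alternatives were DESeq2 size factors or total counts in edgeR, no filter or at least 50 counts in 2 libraries, DESeq2 1.42.0, limma-voom (limma 3.58.1), 1 surrogate variable (sva 3.50.0), a block for the replicate number, an adjusted p of 0.01, other prior counts and leaving out each library. Each clone is 1 library, and counting error is not the limit for these genes. A further marker list is not reported in full here.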

Additional observations from a re-analysis of the deposited data

How the results depend on the processing

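The number of genes called over the whole table was 6 and became 10 without a low-count filter, 690 with DESeq2, 528 with a surrogate variable, 0 at an adjusted p of 0.01 (2078 at an unadjusted p under 0.05) and 0 to 4598 when 1 clone was left out (852 to 5794 at an unadjusted p under 0.05). Of the 9 genes, 0 were called by edgeR, 2 by DESeq2, 2 with a surrogate variable and 0 to 6 when 1 clone was left out, the 6 without WT clone 1. Their median log2 fold change ran from 0.30 to 0.81 over these clones. DESeq2 gave 1.89 for Rrm2 and 1.02 for Dck, and the surrogate variable 1.51 and 0.82. The same surrogate variable shrank Dut from 0.49 to 0.10, Tk1 from 0.73 to 0.32, Dctd from -0.59 to -0.18, Samhd1 from -0.42 to -0.16, Rrm2b from -0.29 to -0.023 and the median of the 9 genes from 0.49 to 0.32. Leaving out 1 clone gave 1.69 to 2.30 for Rrm2, 0.59 to 0.81 for Tyms, 0.53 to 1.20 for Tk1, 0.30 to 0.91 for Dut, -0.99 to -0.27 for Dctd, 0.92 to 1.20 for Dck, 0.29 to 0.44 for Rrm1 and -0.64 to -0.23 for Samhd1, with the calls made only without WT clone 1. For Rrm2b the range was -0.45 to 0.051, positive without WT clone 2. The log2 ratio differences of Tk1 over Dck and Tyms over Dut ran from -0.37 to 0.0024 and from -0.10 to 0.32, with the change of sign without WT clone 1. Size factors, total counts, both other filters and limma-voom changed no call and no direction of the 9 genes. With the replicate number as a block, 0 genes were called (898 at an unadjusted p under 0.05). The labels link WT and TAZ-KO clones of the same number by that number only. The correlation of their deviations was -0.12 for both pairs. With only 2 TAZ-KO clones the deviations of these mirror each other, so such correlations cannot show whether a batch was shared. The causes of these shifts were not tested. With 3 clones against 2, the depth of 263 or more counts per gene is not what limits these comparisons.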
